A study of Mus musculus with 4 samples.

Results

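The promoters of Yap1, Wwtr1, Tead1, Tead3, Ccn1, Ccn2, Ankrd1 and Amotl2 were examined in H3K4me3 HiChIP-seq of MLg cells. These 8 genes are the transcriptional effectors of the Hippo pathway and their commonly used target genes, and they were taken by name from 21755 protein-coding genes on chromosomes 1 to 19 and X. For each transcription start site (TSS), taken from the GENCODE gene record, the pair ends within 2 kb and the pairs of 20 kb to 2 Mb with an end within 10 kb were counted. Both were set against the median coding promoter of the same library, and the distal partners of each promoter were searched for.

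HiChIP-seq joins DNA ends that lie close to each other in the nucleus and then precipitates the chromatin with an antibody, and each pair of reads therefore records a contact, while an excess of ends at a place records the mark. MLg is a mouse lung fibroblast cell line. The cells were transfected with 60 nM of antagomiR probes, an antisense inhibitor of miR-9 or a negative control, and were harvested 24 h later. Human recombinant TGFB1, at 5 ng/ml, was added for 4 h, starting 20 h after transfection, in the libraries that received it. There was 1 library in each condition. These were the Control library, the library with TGFB1 alone, the one with TGFB1+miR-9-LOF and finally miR-9-LOF alone, where LOF stands for loss-of-function, and 4 values given in a row follow this library order. The labels of Control, which is called WT, and of TGFB1 name no antagomiR, whereas the study describes the cells without the miR-9 probe as transfected with the control probe. With 1 library per condition no test between conditions was possible. The 95% intervals given here are exact and cover counting error only, and every comparison is one between libraries. Pair ends are not independent molecules beyond the removal of duplicates.

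YAP (Yap1) and TAZ (Wwtr1) are coactivators that the Hippo kinases keep out of the nucleus, and they reach DNA through TEAD transcription factors such as Tead1 and Tead3. Ccn1 and Ccn2 encode secreted matricellular proteins, Ankrd1 encodes an ankyrin-repeat protein of nucleus and sarcomere, and Amotl2 encodes an angiomotin that binds YAP and restrains it. In fibroblasts the pathway is known for its response to matrix stiffness and cell shape, and Ccn2 is also a classical target of TGFB1 signalling. H3K4me3 is the histone mark of active and CpG-rich promoters.

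RefSeq promoter sequences of GRCm38.p6, from 250 bases before to 50 bases after the RefSeq start, were matched to 6 of the 8 genes, excluding Tead1 and Ccn2. The letters bound by TEAD factors, GGAATG, were searched on both strands. They occurred in all 6 of these promoters, with 7 matches, whereas 13.2% of 16432 matched coding promoters held them at least once. A match is a description of the letters and not a measured binding site. The stretches around the matches are shown because they are the sequence feature the 6 promoters share, each written 5′ to 3′ on the strand of the gene, with GGAATG or its reverse complement CATTCC in capitals.
Yap1: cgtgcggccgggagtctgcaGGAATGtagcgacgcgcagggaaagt
Wwtr1: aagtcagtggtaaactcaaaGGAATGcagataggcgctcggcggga
Tead3: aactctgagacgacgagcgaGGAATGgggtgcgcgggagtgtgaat
Ccn1: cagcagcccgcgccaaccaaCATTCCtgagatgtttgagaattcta
Ankrd1, distal match: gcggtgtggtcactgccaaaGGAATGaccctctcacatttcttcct
Ankrd1, proximal match: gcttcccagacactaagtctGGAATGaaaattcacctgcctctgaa
Amotl2: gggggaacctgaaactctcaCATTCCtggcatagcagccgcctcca

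The first base of the match lay at -141 from the RefSeq start in Yap1 (chr9:8004547-8004846, minus strand), at -136 in Wwtr1 (chr3:57575861-57576160, minus strand) and at -182 in Tead3 (chr17:28350756-28351055, minus strand). It lay at -103 in Ccn1 (chr3:145649936-145650235, minus strand) and at -65 in Amotl2 (chr9:102717554-102717853, plus strand), where the letters were on the opposite strand. Ankrd1 (chr19:36119795-36120094, minus strand) held it at -210 and at -123. The AP-1 letters TGACTCA and TGAGTCA, which are reverse complements of each other, were in none of the 6 promoters and in 4.52% of all matched promoters. The 6 promoters differed in CpG content, from 7 CpG dinucleotides in Ankrd1 to 49 in Yap1, against a median of 14 over all matched promoters. These extremes are printed whole, with the same letters in capitals.
Ankrd1: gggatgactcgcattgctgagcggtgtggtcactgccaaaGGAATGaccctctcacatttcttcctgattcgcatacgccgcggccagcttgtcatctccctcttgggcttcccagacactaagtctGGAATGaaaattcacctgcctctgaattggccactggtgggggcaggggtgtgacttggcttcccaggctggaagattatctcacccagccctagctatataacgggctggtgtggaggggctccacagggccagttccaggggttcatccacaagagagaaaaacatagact
Yap1: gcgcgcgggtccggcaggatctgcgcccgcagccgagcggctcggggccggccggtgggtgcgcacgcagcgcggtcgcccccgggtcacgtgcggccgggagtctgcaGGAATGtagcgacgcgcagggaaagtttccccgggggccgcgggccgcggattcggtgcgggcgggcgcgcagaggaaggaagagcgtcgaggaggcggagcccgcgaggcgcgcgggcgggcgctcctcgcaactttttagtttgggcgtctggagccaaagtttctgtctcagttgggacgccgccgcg

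The libraries held 10864558 to 15568047 valid pairs, of which 4793354 to 6692306 joined places 20 kb to 2 Mb apart. The share of pair ends in H3K4me3-enriched regions differed between libraries, at 9.55%, 6.89%, 4.02% and 4.66% in library order, and its part in the differences described here was not tested. Of the fibroblast markers, 5 of 10 had such a region within 2 kb of the TSS, as did 0 of 6 epithelial, 0 of 4 endothelial and 0 of 4 immune markers, beside 37.4% of all coding promoters. The median level of the fibroblast markers was 1.65 to 2.48 times the median coding promoter, and that of each other marker list was below 1 in every library.

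Among the effectors, Tead1 carried the most pair ends at its promoter and Yap1 the fewest. Yap1 had 344, 176, 135 and 185 ends in library order, which is 3.34, 2.59, 1.69 and 2.10 times the median coding promoter of these libraries. Wwtr1 had 682, 399, 288 and 336 ends, or 6.62, 5.87, 3.6 and 3.82 times the median. Both coactivators were above the median in every library, and Wwtr1 was above Yap1 in every library. Tead1 had 979, 473, 350 and 443 ends, or 9.50, 6.96, 4.38 and 5.03 times the median. Tead3 had 466, 243, 198 and 276 ends, or 4.52, 3.57, 2.48 and 3.14 times the median. Relative to the median coding promoter, Control was the highest and TGFB1+miR-9-LOF the lowest library for each of the 4 effectors. The median promoter with an enriched region moved in the same way, at 3.99, 3.15, 2.20 and 2.52 times the median coding promoter. Relative to it Control was the highest library for Yap1 and Tead1, whereas Wwtr1 was highest in TGFB1 (1.86, with 1.66 in Control) and Tead3 in miR-9-LOF (1.24, with 1.13 in Control).

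Of the targets, Ccn1 and Ccn2 lay within the range of the effectors, Amotl2 was close to Tead1 and above it in TGFB1, and Ankrd1 was near the middle of all coding promoters. Ccn1 had 795, 375, 272 and 368 ends in library order, or 7.72, 5.51, 3.40 and 4.18 times the median. Ccn2 had 776, 307, 248 and 295 ends, or 7.53, 4.51, 3.10 and 3.35 times the median. Both CCN genes again had the highest level in Control, also relative to promoters with an enriched region, where Ccn2 was at 1.89, 1.43, 1.41 and 1.33. Amotl2 had 902, 527, 344 and 411 ends, or 8.76, 7.75, 4.30 and 4.67 times the median. Ankrd1 had 193, 88, 98 and 112 ends, or 1.87, 1.29, 1.23 and 1.27 times the median, with an interval of 1.62 to 2.16 in Control and of 1.04 to 1.59 in TGFB1. Outside Control the intervals of Ankrd1 overlapped each other. Relative to promoters with an enriched region Amotl2 was highest in TGFB1 (2.46, with 2.19 in Control) and Ankrd1 in TGFB1+miR-9-LOF (0.557, with 0.470 in Control).

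Averaged over the libraries, the order was Tead1 (6.47 times the median coding promoter), Amotl2 (6.37), Ccn1 (5.20), Wwtr1 (4.98), Ccn2 (4.63), Tead3 (3.43), Yap1 (2.43) and Ankrd1 (1.42). The first 5 lay between the 92.1 and the 97.4 percentile of all coding promoters and Ankrd1 at the 59.8 percentile. The interval of the ratio of Tead1 to Amotl2 included 1 in all 4 libraries with the gene-record TSS. This rests on the start used for Amotl2, since the transcript start with the most ends lies 1896 bp downstream. Around that start Amotl2 had 1555, 846, 536 and 726 ends in library order and averaged 9.12 times the median, first of the 8 genes, with Tead1 at 5.55. Ccn1 exceeded Wwtr1, and Wwtr1 exceeded Ccn2, beyond counting error in 1 library each, and in Control Ccn2 exceeded Wwtr1 beyond counting error. Tead3 over Yap1 and Yap1 over Ankrd1 held beyond counting error in all 4. The order of Tead3 and Yap1 turned when ends were scaled to those 20 to 100 kb on either side of the TSS. Relative to the median coding promoter, Yap1 was then at 4.32, 3.12, 2.13 and 2.59 in library order. Tead3 was at 2.51, 1.95, 1.49 and 1.8. Wwtr1 was then above Tead1 in every library but Control. Yap1, with the most CpGs among the 6 promoters with a sequence, was second lowest in unscaled ends, and Ankrd1, with the fewest CpGs, was lowest. MboI, the enzyme that cut the chromatin, has 5 sites within 2 kb of the Yap1 and Tead3 TSS, 6 at Ankrd1, 8 at Ccn2 and 12 or 13 at the other 4, against a median of 9, and ends are joined at such sites, for which the levels were not corrected.

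**Figure D1:**
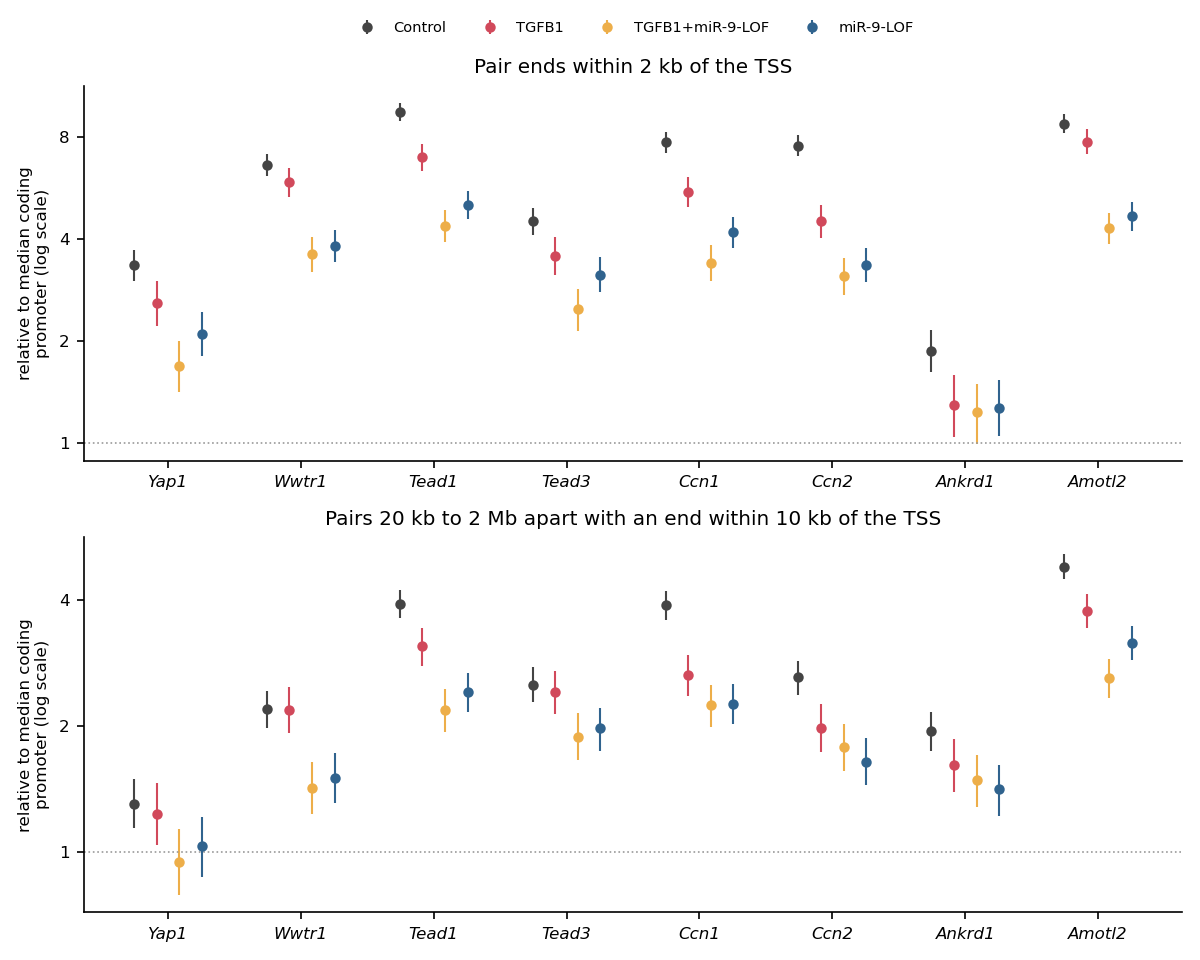
Level of each gene relative to the median coding promoter (dotted line at 1, vertical axes on a log scale) in the 4 libraries, as pair ends within 2 kb of the TSS (top) and as pairs 20 kb to 2 Mb apart with an end within 10 kb (bottom). Points are 1 library each and bars are exact 95% Poisson intervals; the Control points of Tead1, Amotl2, Ccn1 and Ccn2 lie at 9.50, 8.76, 7.72 and 7.53 in the top panel and every gene is lower in TGFB1+miR-9-LOF than in Control.

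An H3K4me3-enriched region lay within 2 kb of the TSS in 6 of the 8 genes, all but Tead3 and Ankrd1, against 37.4% of all coding promoters. The region at Amotl2 was the widest, with 5000 bp (chr9:102717001-102722000), and it began downstream of the GENCODE start used here. The region at Ccn1 spanned 4000 bp (chr3:145649001-145653000) and extended upstream of the TSS. Wwtr1 had 3000 bp (chr3:57574001-57577000), Tead1 2000 bp (chr7:112679001-112681000), Ccn2 2000 bp (chr10:24595001-24597000) and Yap1 1000 bp (chr9:8003001-8004000). The median width over all 8490 regions was 1000 bp. Regions are runs of neighbouring 1-kb bins of the same ends, so these widths also depend on where MboI sites lie, for which they were not corrected.

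Along the genes the ends were high over the first part of Amotl2 and on both sides of the TSS of Ccn1. Bins without ends lie between them in every gene, since the positions of the ends follow the MboI sites, so the width of a peak cannot be read from these profiles. In bins of 500 bp, averaged over the libraries, the highest bin of Ccn2 lay 0.0 to 0.5 kb downstream of the TSS and held 7.92 ends per 1000000 ends of the library. The highest bin of Amotl2 lay 1.0 to 1.5 kb downstream with 13.7 ends per 1000000, which is close to the RefSeq start, 1132 bp downstream of the GENCODE one. Yap1, Wwtr1 and Tead1 all had their highest bin 0.5 to 1.0 kb downstream, with 4.68, 5.20 and 6.70 ends per 1000000. Tead3 had its highest bin just upstream of the TSS, with 6.86 ends per 1000000, and lower ones elsewhere, of which the bin 1.0 to 1.5 kb downstream held 3.35, 2.72, 1.2 and 2.18 in library order. Ankrd1 had no bin that was highest in all libraries. The bin 2.5 to 3.0 kb downstream, inside the gene and outside the window of 2 kb, held 3.78, 2.02, 1.77 and 1.64 ends per 1000000 in library order, and the bin centred at -9.25 kb, upstream of Ankrd1, held 2.67, 2.53, 1.98 and 1.67. The former was higher in Control and the latter in the other 3 libraries. There the latter held 55 ends against 44, 56 against 50 and 52 against 51, close counts whose order was not tested.

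**Figure D2:**
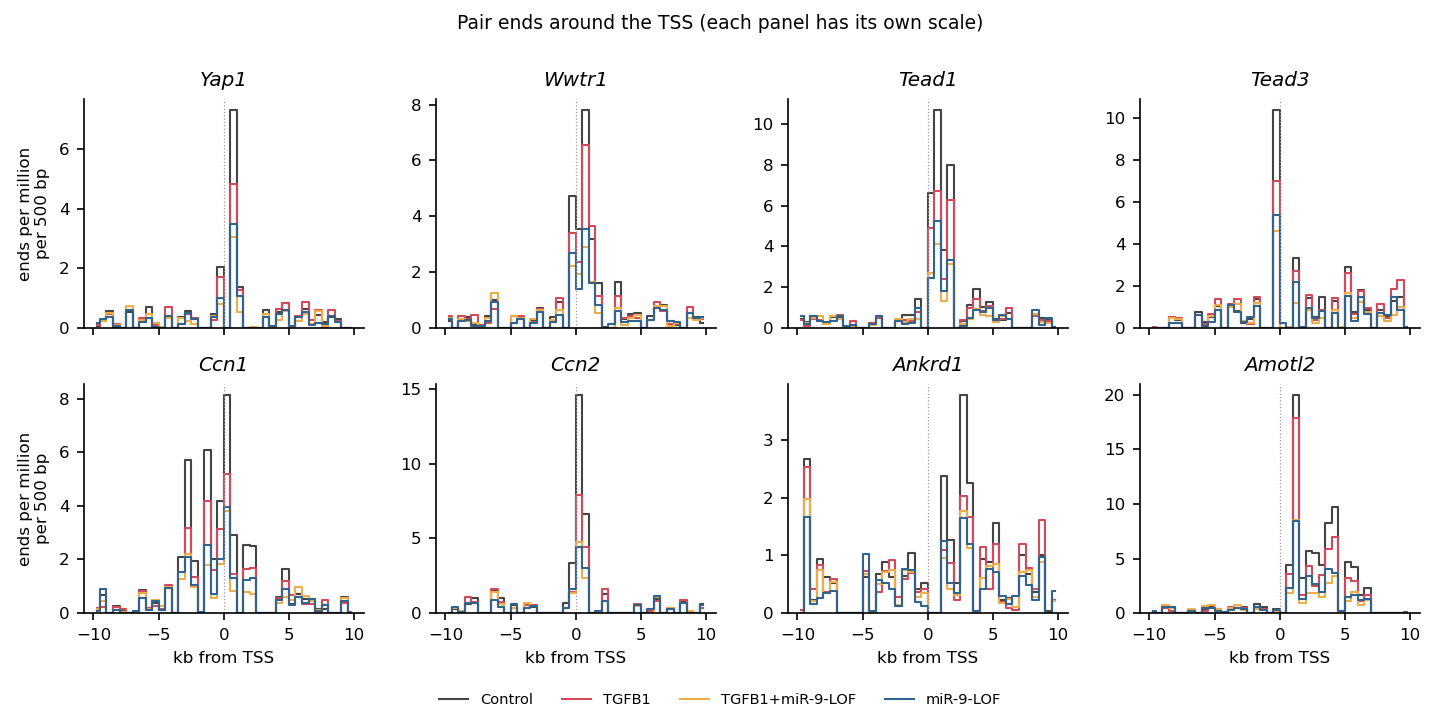
Pair ends per 1000000 ends in bins of 500 bp (vertical axis, a separate scale in each panel) against the distance from the TSS in kb, with transcription running to the right, for the 8 genes and 4 libraries. The highest bins, averaged over libraries, hold 13.7 ends per 1000000 at Amotl2 and 7.92 at Ccn2. In Ankrd1 a bin inside the gene is highest in Control and a bin at -9.25 kb in the other 3 libraries, there on close counts.

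In the number of distal contacts, not corrected for coverage, the targets Amotl2 and Ccn1 and the effector Tead1 led. Amotl2 had 821, 433, 338 and 451 pairs in library order, or 4.8, 3.77, 2.60 and 3.15 times the median coding promoter, and averaged 3.58, at the 98.8 percentile. Ccn1 had 664, 304, 291 and 323 pairs, or 3.88, 2.64, 2.24 and 2.26 times the median. Tead1 had 669, 356, 283 and 345 pairs, or 3.91, 3.10, 2.18 and 2.41 times the median. Amotl2 exceeded Tead1 beyond counting error in all 4 libraries, and Tead1 exceeded Ccn1 in 1. Ccn2 (446, 227, 231 and 235 pairs) ranged from 1.64 to 2.61 times the median and Tead3 (429, 277, 245 and 281 pairs) from 1.88 to 2.51. Wwtr1 (374, 251, 185 and 215 pairs) ranged from 1.42 to 2.19 and Ankrd1 (332, 185, 192 and 201 pairs) from 1.41 to 1.94. Yap1 had the fewest, with 223, 142, 123 and 147 pairs, or 1.30, 1.23, 0.946 and 1.03 times the median, and the intervals of the last 2 libraries included 1. Ankrd1 exceeded Yap1 in contacts in all 4 libraries although it had fewer ends at the promoter.

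To compare libraries, log2 ratios of depth-scaled counts, which are ends per 1000000 ends and pairs per 1000000 pairs 20 kb to 2 Mb apart, were taken relative to the median log2 ratio of coding promoters in the same twentieth of the pooled level, because the ratio varied with the level of the promoter. In ends, the log2 ratio of the depth-scaled median count of promoters with an enriched region was -0.44 for TGFB1 over Control. It was -0.91 for miR-9-LOF over Control, against -0.099 and -0.25 for the median count of all coding promoters. The median log2 ratio of promoters in the top twentieth was -0.45 and -1.03, so promoters of high level fell further than the median coding promoter. A promoter was called where the relative change was at least 0.32 either way and its interval did not include 0. TGFB1 and miR-9-LOF were both set against the same Control library, and TGFB1+miR-9-LOF was set against both of them, so the comparisons are not independent.

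TGFB1 over Control asked what the cytokine does when miR-9 is present. In promoter ends 2 of the 8 genes were called, both lower, beside 9.09% of all coding promoters. Ccn2 was lower, at -0.38 on the relative log2 scale (interval -0.58 to -0.19) and Ankrd1 at -0.42 (-0.80 to -0.05). Neither passed a 1.5-fold threshold, the call of Ankrd1 was lost with windows of 1 or 5 kb and relative to promoters with an enriched region, and that of Ccn2 with a window of 5 kb or with the transcript start that holds the most ends. Wwtr1 (0.18) and Amotl2 (0.17) had intervals above 0 but were under the threshold of size, and both turned negative relative to the median of all coding promoters, at -0.17 and -0.18. The other 4 genes lay between -0.13 and just under 0 with intervals that included 0. In contacts 0 of the 8 were called, beside 9.51% of all coding promoters. Ccn1 had the lowest value, -0.29 (-0.49 to -0.09), followed by Ccn2 with -0.22 (-0.46 to 0.02), and Wwtr1 had the highest, 0.17 (-0.06 to 0.41), which turned to just under 0 relative to the median of all coding promoters. Relative to that median 6 of the 8 were called lower in ends, all but Wwtr1 and Amotl2, and 4 in contacts, which were Ccn1 (-0.55), Ccn2 (-0.40), Amotl2 (-0.35) and Tead1 (-0.34). The shares of all coding promoters called either way at this reference were 28.6% in ends and 15.5% in contacts. Relative to promoters with an enriched region Ccn2 (-0.40) was called in ends and Ccn1 (-0.37) in contacts. Here the shares of all coding promoters were 21.3% and 17.4%.

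TGFB1+miR-9-LOF over TGFB1 asked what blocking miR-9 does under the cytokine. In promoter ends 0 of the 8 genes were called, beside 9.22% of all coding promoters, and the values ran from -0.19 in Amotl2 to 0.06 in Ankrd1. Relative to the median of all coding promoters 7 of the 8, all but Ankrd1, were called lower, at -0.85 to -0.53, and relative to promoters with an enriched region Amotl2 (-0.33) and Ankrd1 (0.44) were called. The shares of all coding promoters called either way at these references were 39.8% and 35.1%. In contacts 2 of the 8 were called, both coactivators and both lower, beside 9.73%. Wwtr1 was lower, at -0.44 (-0.72 to -0.16). Its pairs went from 52.4 to 31.1 per 1000000, a log2 ratio of -0.75, against a median of -0.31 at the same pooled level. Yap1 was lower, at -0.37 (-0.73 to -0.01). Its pairs went from 29.6 to 20.7 per 1000000, a log2 ratio of -0.52, against a median of -0.15. The call of Wwtr1 held for each other window, distance range and filter but not at 1.5-fold, whereas that of Yap1 was lost with a window of 25 kb, where its value was -0.07, and under 5 other settings. Relative to the median of all coding promoters 5 of the 8 were called lower in contacts, including both coactivators, and relative to promoters with an enriched region Wwtr1 (-0.40) was. Beside these, 18.9% and 24% of all coding promoters were called either way. Neither coactivator was called in promoter ends, where the values were -0.11 (-0.34 to 0.11) for Wwtr1 and -0.17 (-0.50 to 0.16) for Yap1.

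miR-9-LOF over Control asked what blocking miR-9 does without the cytokine. In promoter ends 2 of the 8 were called, both lower, beside 16.8% of all coding promoters, and they were again Ccn2 and Ankrd1. Ccn2 was lower, at -0.44 (-0.64 to -0.25) and remained below 0 relative to the median coding promoter (-1.17) and to the median promoter with an enriched region (-0.51). Ankrd1 was lower, at -0.38 (-0.73 to -0.03), but its value turned to 0.10 relative to promoters with an enriched region, and the call was also lost with a window of 5 kb, the mapping quality filter and the transcript start. In contacts 1 of the 8 was called, beside 18.7%, and this was Ccn2 with -0.34 (-0.57 to -0.11). Its pairs went from 66.6 to 35.7 per 1000000, a log2 ratio of -0.90, against a median of -0.56 at the same pooled level. The call of Ccn2 was lost with a window of 25 kb (-0.16), with distances from 50 kb and at 1.5-fold. Ccn1 had -0.32 (-0.52 to -0.13), just under the threshold of size, and Wwtr1 (-0.26) and Tead1 (-0.23) had intervals below 0 as well. Tead3 had 0.13 in ends and 0.04 (-0.19 to 0.26) in contacts, which turned to -0.53 and -0.35 relative to the median of all coding promoters. Relative to that median all 8 genes were called lower, at -1.17 to -0.53 in ends and at -0.78 to -0.34 in contacts. The shares of all coding promoters called either way at this reference were 52.8% in ends and 41.8% in contacts. These shares are not matched for level, and the top twentieth had a median log2 ratio of -1.03 in ends and -0.70 in contacts. Relative to promoters with an enriched region Ccn2 was called in ends, and Ccn1 (-0.48), Tead1 (-0.39) and Ccn2 (-0.36) in contacts. Here the shares of all coding promoters were 52.1% and 46.7%.

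TGFB1+miR-9-LOF over miR-9-LOF asked what the cytokine does when miR-9 is blocked. None of the 8 genes was called in promoter ends or in contacts, beside 8.23% and 6.76% of all coding promoters. In ends the values ran from -0.15 in Yap1 and Tead3 to 0.13 in Wwtr1. In contacts they ran from -0.13 in Amotl2 to 0.19 in Ccn2. Relative to the median of all coding promoters Wwtr1 turned to -0.09 in ends, and Tead3 (-0.34) was called, beside 14.7% of all coding promoters. Ccn2 was at 0.10 (-0.15 to 0.35) in ends here and at -0.11 relative to that median, and its difference from TGFB1 over Control was not tested.

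**Figure D3:**
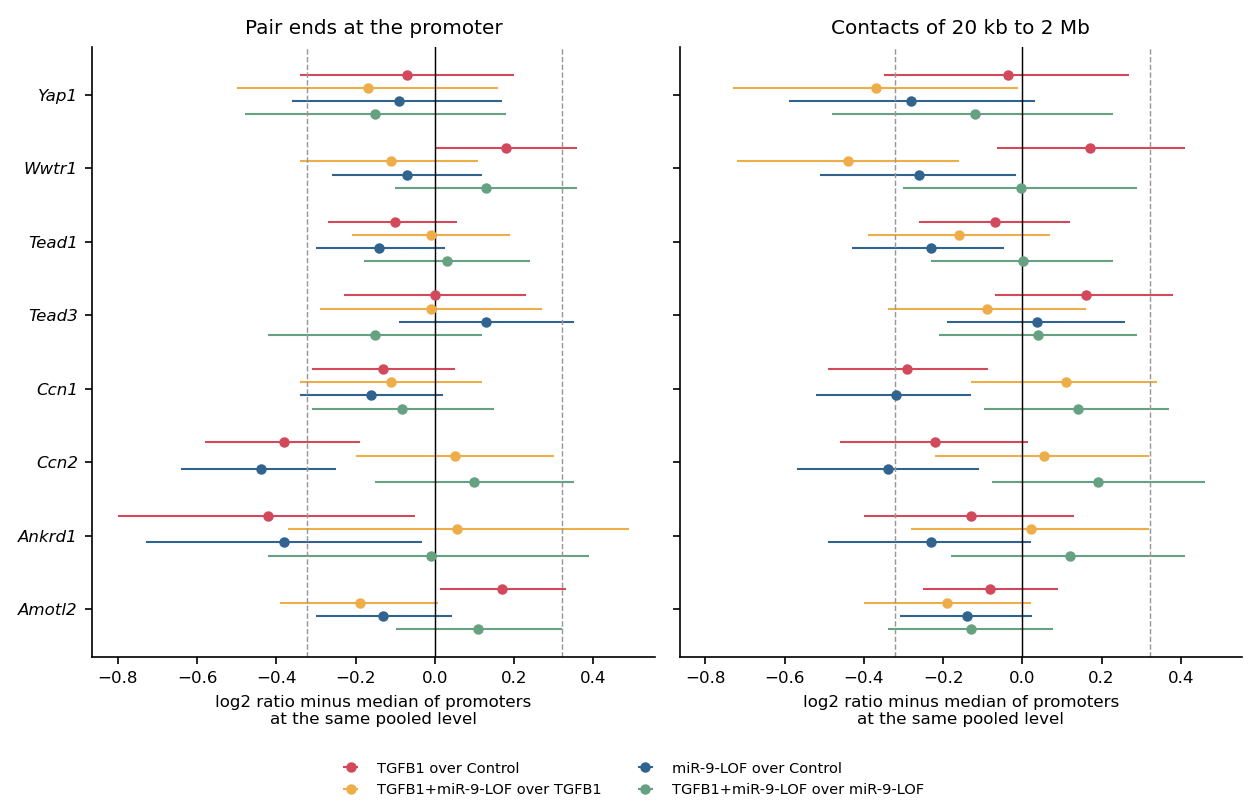
Change of each gene between libraries in promoter ends (left) and contacts (right), as the log2 ratio minus the median of coding promoters at the same pooled level. Points are single comparisons of 2 libraries, bars are exact 95% intervals of the ratio of counts, and dashed lines mark 0.32 either way; the points left of the dashed line whose bars do not reach 0 are Ccn2 and Ankrd1 in ends and Yap1, Wwtr1 and Ccn2 in contacts.

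Distal partners were searched for in bins of 10 kb, with the 4 libraries summed. A bin was a partner if it held at least 10 pairs, at least 2 times the number expected from the coverage of both places and their distance, and a Poisson interval above that number. The 8 promoters had 51 partner bins, and 0.594% of the distal bins of all coding promoters were partners. The median coding promoter had 1 partner bin, the third quartile was 3 and the 95 percentile 9. Ccn2 had 17, more than 99.1% of coding promoters, followed by Wwtr1 with 8, Ccn1 and Yap1 with 7 each, Ankrd1 with 5, Tead1 with 4 and Amotl2 with 3. Tead3 had 0, and its pairs were 0.502 times the expected number, which lies at the 5.50 percentile of coding promoters. Among all coding promoters 43.1% had 0. The expected number summed over all promoters was 1.28 times the number of pairs. In the 8 genes, with both sides of the TSS together, the pairs over expected were 1.62 in Yap1 and 1.23 in Wwtr1. They were 0.502 to 0.936 in the other 6, where the 2-fold rule asked for a larger excess over this average. This did not hold on each side. Within 500 kb upstream, Ccn2 had 1.80 times the expected pairs, Ccn1 1.32 times and Ankrd1 523 pairs against 417. Tead1, Tead3 and Amotl2 were below the expected number there. The partner bins of Ccn2 lay upstream, so their number and its upstream excess are not separate findings. Numbers of partner bins are not directly comparable between genes.

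The partners of the targets Ccn1, Ccn2, Ankrd1 and Amotl2 were all upstream of the TSS, and upstream distances are written as negative. Most of those of Ccn2 lay in stretches with no coding gene, at -285 to -175 kb (chr10:24310001-24420000, 275 pairs against 93.1 expected) and at -145 to -105 kb (chr10:24450001-24490000, 163 against 62.8). The first stretch held 2.95 times the expected pairs (2.62 to 3.32) over 11 neighbouring bins. A separate bin with 12 pairs, against 5.00 expected, held the promoter of Rps12. Those of Ccn1 gathered at -270 to -220 kb (chr3:145870001-145920000), with 193 pairs against 65.7 expected, a ratio of 2.94 (2.54 to 3.38), and its strongest bins lay in the body of Ddah1. The single stretch of Amotl2, at -86.7 to -56.7 kb (chr9:102630001-102660000), held 445 pairs against 189 expected, a ratio of 2.36 (2.14 to 2.58), and had no coding TSS.

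In Ankrd1, 2 of the 5 partner bins held a coding TSS and an enriched region. These were Hectd2, at -440 to -430 kb, with 16 pairs against 7.21 expected, and Btaf1, at -810 to -800 kb, with 11 against 3.51. The other 3 bins lay in the body of Pcgf5, between -330 and -280 kb. Its partner bins held 29, 12, 12 and 12 pairs in library order, the fewest of the 7 genes with partners.

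The tested bins started 20 kb beyond the window of 10 kb around the TSS. Ccn1, Ccn2, Ankrd1, Amotl2 and Tead3 all end before that distance. Only the coactivators and Tead1 could therefore have partners inside their own gene bodies, and they did. Wwtr1 had 6 of its 8 partner bins there, of which the stretch 65.9 to 116 kb downstream of the TSS (chr3:57460001-57510000) held 189 pairs against 59.0 expected, a ratio of 3.21 (2.76 to 3.70). Its other 2 bins lay 256 to 276 kb downstream, and 1 of them held the promoter of Tm4sf1. Yap1 had a stretch 34.6 to 84.6 kb downstream (chr9:7920001-7970000) with 115 pairs against 46.9, a ratio of 2.45 (2.02 to 2.94), of which 4 of 5 bins were in the gene. It also had 1 bin at the promoter of Tmem123 and 1 in the body of Cep126. Tead1 had 1 bin in its own body, 181 to 191 kb downstream (chr7:112860001-112870000), with 58 pairs against 24.1, and 3 bins in the body of Mical2, at -299 to -269 kb, with 94 against 44.2.

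**Figure D4:**
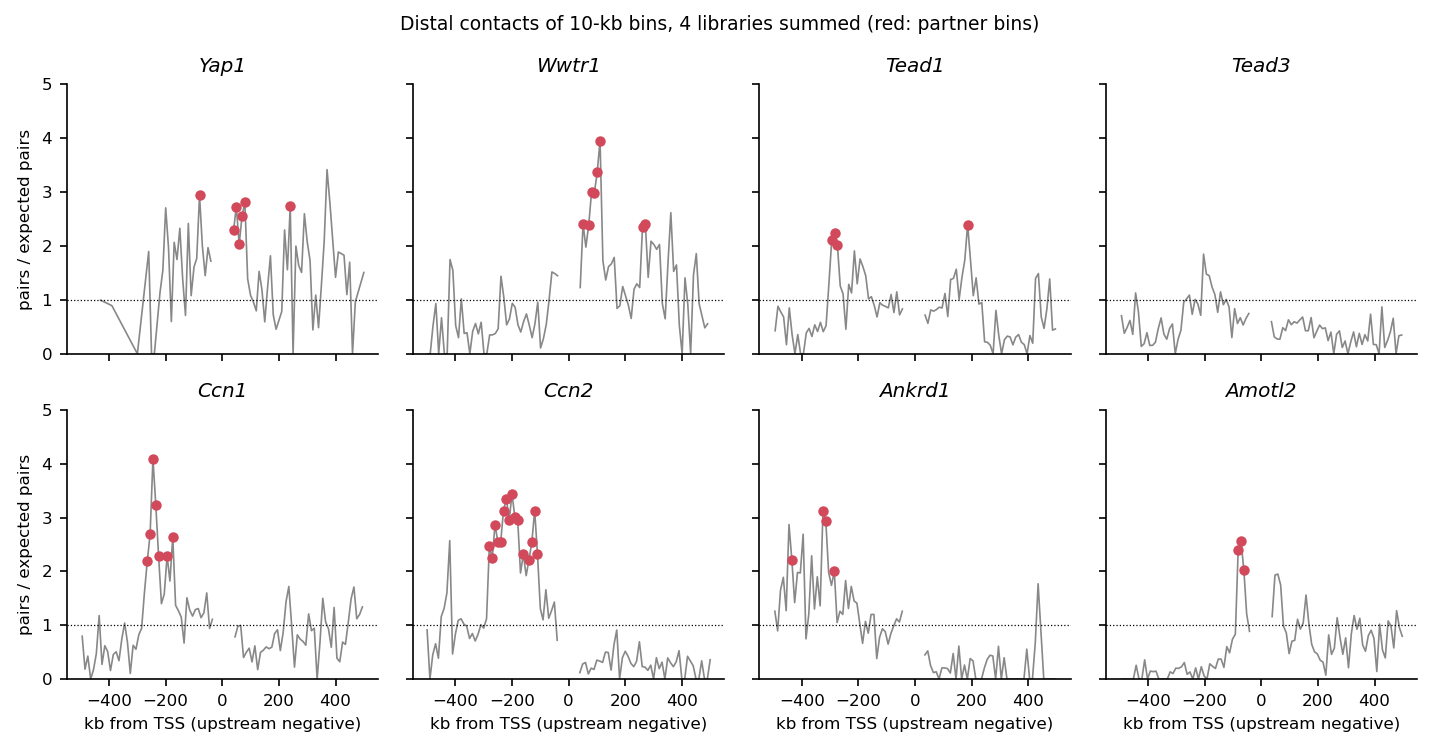
Pairs over expected pairs (vertical axis) in 10-kb bins with at least 1 expected pair, against the distance of the bin from the TSS in kb with upstream to the left, for the 4 libraries summed. Only bins within 500 kb of the TSS are drawn, so the Rps12 bin of Ccn2 and the Btaf1 bin of Ankrd1 are not shown. Red points are partner bins and the dotted line marks the expected number. The partners of Ccn1, Ccn2, Ankrd1 and Amotl2 lie to the left of the TSS while most of those of Wwtr1 and Yap1 lie to the right.

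Of the 51 partner bins, 4 held an enriched region (7.84%), beside 13.0% of the partner bins of all coding promoters, and 5 held a coding TSS (9.80%), beside 19.2%. Over all distal bins, partners or not, the 8 genes had 3.85% with an enriched region and 7.95% with a coding TSS, against 5.36% and 13.8% for all coding promoters. The TEAD letters had a median of 6 matches per 10 kb in the 51 partner bins (quartiles 5 and 8) and of 6 in the 3067 other distal bins of the 8 genes (quartiles 4 and 7). Because the partner bins were chosen from the summed pairs, they were also called from 3 libraries and then counted in the library left out. The bins called without Control held 2.41 times the expected pairs in Control (2.23 to 2.59), and leaving out each of the next 3 libraries gave 2.46, 2.47 and 2.41. Over all coding promoters the ratio was 2.21 to 2.34. In these left-out counts Ccn2 had 2.49 to 2.85 and Ccn1 2.66 to 2.83 times the expected pairs, with all lower bounds above 1. Ankrd1 had 0.903 (0.246 to 2.31) in Control and an interval that included 1 in every library, so its partners did not exceed the expected number beyond counting error in a library that was not used to choose them.

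Ccn2 and Ankrd1 were among the most one-sided promoters. Of the distal pairs of Ccn2, 78.8% (76.4 to 81.2) went upstream, at the 99.5 percentile of 20513 coding promoters with at least 100 pairs, whose median was 49.7%. The share was 80.3%, 77.5%, 77.1% and 79.1% in library order. Ankrd1 sent 75.2% (72.2 to 77.9) of its pairs upstream, at the 98.8 percentile, with 70.3% to 79.5% in the libraries. Within 500 kb Ccn2 had 1.80 times the expected pairs upstream and 0.284 times downstream, and Ankrd1 had 523 pairs upstream against 417 expected and 82 downstream against 289. Ccn1 sent 65.2% upstream, at the 92.3 percentile. Wwtr1, Yap1 and Amotl2 sent more pairs downstream, with 36.6% (33.6 to 39.6), 39.7% (35.9 to 43.6) and 39.8% (37.7 to 42) upstream, at the 11.5, 17.4 and 17.7 percentiles. Amotl2, whose partner bins were upstream, had 0.909 times the expected pairs upstream and 1.07 times downstream within 500 kb.

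Amotl2 had the shortest contacts of the 8 promoters. Of its pairs, 66.8% (64.7 to 68.8) spanned less than 100 kb, at the 99.8 percentile, against a median of 36.7% over coding promoters and 25.1% in Ccn2. The share was 71.1%, 67.4%, 61.5% and 62.1% in library order. Tead3 stood out in contacts with other chromosomes, which made up 30.8% (28.8 to 32.7) of its pairs to places over 20 kb away or on another chromosome, at the 95.1 percentile, against a median of 22.9%. The 4 libraries gave 29.8% to 31.5%. Tead3 was also the gene with the most coding neighbours, with 22 other coding TSS within 500 kb against 3 to 9 for the other 7 and a median of 16.

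The share of a promoter's distal pairs that fell in its partner bins is a value within 1 promoter and 1 library, and the bins were chosen from the same pairs. In Ccn2 it was 48.3% (43.3 to 53.3), 47.1%, 43.2% and 45.8% in library order, and all intervals overlapped. Ccn1 had 17.1%, 19.4%, 16.4% and 13.8%, and Wwtr1 25.8%, 25.9%, 28.0% and 26.3%, again with overlapping intervals. Amotl2 was the exception, with 26.8% (23.7 to 30.1), 25.5% (21.3 to 30.1), 20.4% (16.1 to 25.2) and 17.3% (13.8 to 21.2) in library order, where the interval of miR-9-LOF did not overlap those of Control and TGFB1. Its pairs over expected in the same bins were 2.44 (2.12 to 2.79) in Control and 2.18 (1.71 to 2.74) in miR-9-LOF, with overlapping intervals. Tead1, Yap1 and Ankrd1 had overlapping intervals in all 4 libraries.

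**Figure D5:**
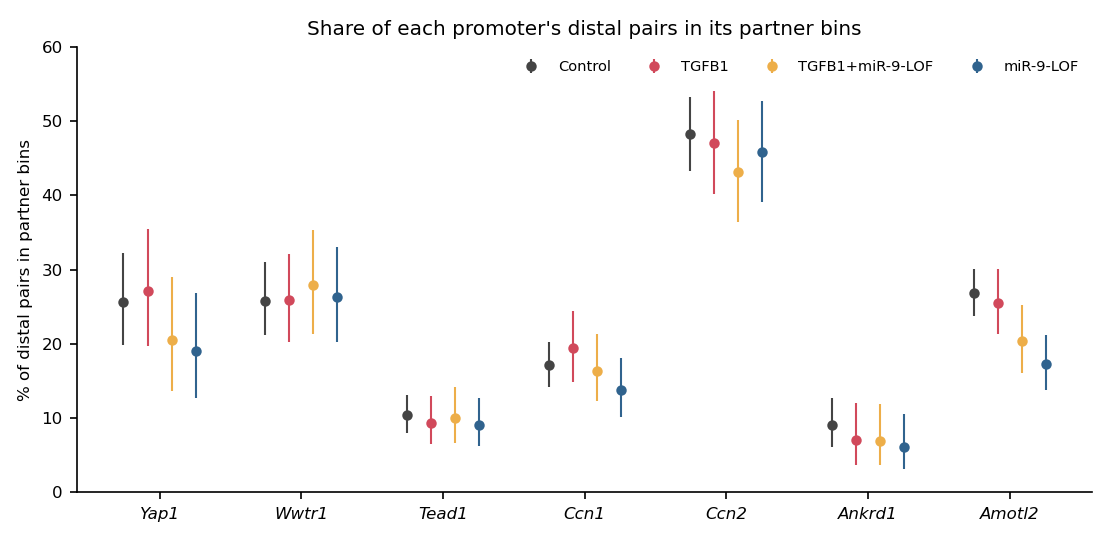
Share of each promoter's distal pairs that fall in its partner bins (vertical axis, in percent) for the 7 genes with partners, in the 4 libraries. Points are 1 library each and bars are exact 95% binomial intervals; Ccn2 lies between 43.2% and 48.3% and in Amotl2 the interval of miR-9-LOF lies below those of Control and TGFB1.

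Further genes of the pathway were taken from a list of 40 genes: 18 Hippo kinases, scaffolds and upstream regulators, 5 TEAD and VGLL cofactors and 19 further targets, with Ajuba and Lats2 in 2 of the lists. An enriched region lay at 12 of the 18, 4 of the 5 and 14 of the 19 promoters, beside 37.4% of all coding promoters. Among the kinases Lats1 (2.10 times the median coding promoter in ends) and Stk4 (1.78) had one, whereas Stk3 (0.279), Lats2 (1.17) and the adaptor Sav1 (0.616) had none. Nf2 (6.41), a scaffold of the pathway, and the protocadherin Fat1 (6.63) were at the level of Tead1. Of the remaining TEADs, Tead2 was at 3.34 and Tead4 at 3.85, close to Tead3.

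In ends, 1 gene of the 40 was called higher and 2 lower in TGFB1 over Control, 0 and 2 in TGFB1+miR-9-LOF over TGFB1, 1 and 6 in miR-9-LOF over Control, and 2 and 2 in TGFB1+miR-9-LOF over miR-9-LOF. In contacts the numbers were 1 and 1, 1 and 3, 1 and 5, and 1 and 0. The median relative change of the list was between -0.11 and 0.06, against 0.00 over all coding promoters, and the shares called were near or below those of all coding promoters in each comparison. Foxf2, a forkhead factor of mesenchyme, was higher in TGFB1 over Control, by 0.37 (0.17 to 0.56) in ends and 0.46 (0.26 to 0.65) in contacts, and lower in ends, at -0.53 (-0.78 to -0.27), in TGFB1+miR-9-LOF over TGFB1. Ccdc80 (-0.60) and Amot (-0.40) were lower in ends in TGFB1 over Control, and Crim1 (-0.40) in contacts. Vgll3, a cofactor that binds TEADs, was lower in TGFB1+miR-9-LOF over TGFB1 in ends (-1.07, -1.69 to -0.47), on 38 ends against 63, and in contacts (-0.55, -1.01 to -0.09).

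In miR-9-LOF over Control the 4 called list genes with the largest changes in ends were lower, with Asap1 at -0.76, Mob1b, which activates the LATS kinases, at -0.73, Amotl1, an angiomotin, at -0.71 and Vgll3 at -0.60. They held 80 ends against 180, 54 against 99, 51 against 82 and 66 against 104. Asap1, Mob1b and Amotl1 had no enriched region, and Mob1b, Amotl1 and Vgll3 averaged 0.883, 0.676 and 0.79 times the median coding promoter. In contacts the 4 called list genes with the largest changes were Vgll3 (-0.82), Ccdc80 (-0.43), Mob1b (-0.42) and Crim1 (-0.41). The 1 list gene called higher in ends was Tead2 (0.41, 0.18 to 0.63), and in contacts it was Rbms3 (0.34, 0.03 to 0.65). Stk3, which was not called, had the largest value in ends, 0.81 (-0.03 to 1.70), on 39 ends against 18. In contacts in TGFB1+miR-9-LOF over TGFB1, Sav1 (-0.52) and Ccdc80 (-0.47) were lower and the kinase gene Nuak2 (0.33) was higher. With miR-9 blocked, TGFB1+miR-9-LOF over miR-9-LOF gave Vgll3 (-0.71) and Lats2 (-0.43) lower and Fjx1 (0.50) and Asap1 (0.45) higher in ends, and Nuak2 (0.36) higher in contacts.

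For each of the 8 promoters the coding promoter on another chromosome with the most similar contacts was found, by the Euclidean distance over the 4 libraries in log2 contacts relative to the median. It was Gab2 for Yap1 (distance 0.04), Armc8 for Wwtr1 (0.10), Slc9a5 for Tead1 (0.07), Gnai3 for Tead3 (0.04), Fastk for Ccn1 (0.12), S100a6 for Ccn2 (0.04), Ptcd2 for Ankrd1 (0.05) and Ttc9c for Amotl2 (0.02). Within a distance of 0.1 there were 28 promoters for Ankrd1 and 26 for Tead3, but 1 for Wwtr1 and 0 for Ccn1. The distances take no account of counting error, so these numbers do not rank how common a pattern is. In contacts the interval of Yap1 in TGFB1+miR-9-LOF, for example, was 0.786 to 1.13 times the median. The 4 values of a promoter share the depth of 1 library each and are a description.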

How the data were processed

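The 4 HiChIP-seq libraries of MLg cells, each from another condition, were analysed from their valid pairs. Reads had been aligned by the authors to mm10 with HiC-Pro, duplicates removed and ends assigned to MboI fragments, and 1 line per valid pair was deposited. The deposited positions were counted here, and the authors' mapping quality score of each end served only as a filter in an alternative. MboI sites found in GRCm38 were compared with the deposited fragment numbers, with at least 99.97% of the ends checked within 1 fragment. The version of HiC-Pro is not given in the sources used here.

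Counts were made with Python 3.11.15, numpy 2.4.6, scipy 1.17.1 and pyarrow 21.0.0, and plots with matplotlib 3.10.9. TSS were those of GENCODE M21 gene records. Enriched regions were called in 1-kb bins, at least 4-fold over the higher of the chromosome mean and the mean of the surrounding 100 kb, at a false discovery rate of 0.01. Changes were called only with at least 20 counts in both libraries together, by conditional binomial intervals. Expected pairs came from coverage and distance at 1-kb resolution. The 8 genes, the lists and the rules were chosen with earlier results of these data known. Named were all 8 genes, up to 3 partner bins of each with the largest excess and the stretches that contain them, at most 4 called genes of the pathway list per comparison, and the most similar promoter. Stretches and single partner bins beyond the 3, list genes named for their level, and Tead2, Rbms3 and Stk3 in miR-9-LOF over Control were named after their values were seen.

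The rules were tested on simulated data. Of 200 promoters of above-median level changed 1.5-fold, out of 21755 and at the depths of TGFB1 and Control, 94.5% were recovered in ends, with 2.99% of the others, and 93.5% in contacts, with 3.06%. Of 200 partner bins planted at 4-fold where at least 5 pairs were expected, all 200 were found, with 0.089% of the others. These values hold counting error alone. Relative to promoters at the same pooled level, the changes called in Ccn2, Ankrd1, Yap1 and Wwtr1 were below 1.5-fold. Recovery at such sizes was not simulated. Partner bins nearer the 2-fold rule were not simulated either, nor those with under 5 expected pairs, such as the Btaf1 bin of Ankrd1 (3.51 expected). Alternatives were other windows, distances, references, thresholds, bins, a mapping quality of at least 30, each fragment pair once and the start of the transcript with the most ends.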

Additional observations from a re-analysis of the deposited data

How the results depend on the processing

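With 1 library per condition no replicate could be left out, and no paired analysis was possible because each condition has 1 library. Of 544 values of single genes under another setting, 497 stayed within the interval of the reported value, 46 moved outside it and 1 called value changed sign, that of Ankrd1 in ends in miR-9-LOF over Control, at 0.10 relative to the median promoter with an enriched region. The choice of reference mattered most. Relative to the median of all coding promoters, the genes called in ends were 6, 7, 8 and 1 in the 4 comparisons in the order of the report, in place of 2, 0, 2 and 0, and in contacts 4, 5 and 8 in the first 3, in place of 0, 2 and 1. The shares of all coding promoters called were then 28.6%, 39.8%, 52.8% and 14.7% in ends. In contacts they were 15.5%, 18.9% and 41.8% in the first 3, so calls rose among all coding promoters too. These shares are not matched for level, and promoters of high level fell together relative to this reference. Relative to promoters with an enriched region the genes called were 1, 2 and 1 in ends and 1, 1 and 3 in contacts in the first 3. Beside these stood 21.3%, 35.1% and 52.1% of all coding promoters in ends, and 17.4%, 24% and 46.7% in contacts. In TGFB1 over Control 1 was called in ends with a window of 1 kb or with the transcript start, 0 with 5 kb and 0 at 1.5-fold, and 1 in contacts with a window of 5 kb or distances from 50 kb. The shares of all coding promoters under these settings were 8%, 9.4%, 10.6% and 4.17% in ends, and 8.68% and 9.42% in contacts. In TGFB1+miR-9-LOF over TGFB1 1 was called in contacts with windows of 5 or 25 kb, distances from 50 kb or the mapping quality filter, and 0 at 1.5-fold. Beside these stood 8.59%, 5.71%, 8.81%, 9.69% and 1.94% of all coding promoters. In miR-9-LOF over Control 1 was called in ends with a window of 5 kb, the mapping quality filter or the transcript start, and 0 at 1.5-fold, and in contacts 2 with distances to 1 Mb or each fragment pair once, and 0 at 1.5-fold. The shares of all coding promoters were 20.6%, 17.9%, 17.5% and 7.49% in ends, and 19%, 18.4% and 4.78% in contacts. The median level of the 8 genes in ends, 4.8, was 2.77 with a window of 5 kb and 1.59 relative to promoters with an enriched region, and in contacts, 2.10, it was 1.38 relative to the latter. The 51 partner bins became 30 with bins of 20 kb, 11 at 3-fold and 221 with an expectation from distance alone. Leaving out a library, an alternative added after seeing the data, gave 43 to 49. Levels at the transcript start, also added after seeing the data, had medians of 4.28 in ends and 2.06 in contacts. The causes of these differences were not tested. Counting error in single libraries limits what can be seen, and relative changes under 0.32 were not called.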
